A study of Sus scrofa with 15 samples.

Results

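The insulin-like growth factor (IGF) axis was followed in the backfat of Iberian pigs through 10 genes, chosen with earlier results of these data known. They were the ligands IGF1 and IGF2, the receptors IGF1R and IGF2R, and the binding proteins IGFBP2 to IGFBP7. Of these, 8 were matched to 1 of the 30477 genes counted, and all 8 were among the 14918 genes that passed the filter on low counts. The tables that pair symbols with gene identifiers held no entry for IGF2 and IGFBP3, which were not analysed here. Subcutaneous fat over the back had been biopsied at the end of the growing period from 5 pigs per diet. Control pigs (C) ate a standard compound feed. Pigs of the DOP group ate a compound feed made with dry olive pulp, the partly dried residue that remains after a further extraction of oil. Pigs of the WCOC group ate a compound feed of their own without by-product and had free access to a silage of wet crude olive cake and barley straw. All pigs were Iberian. The compound feeds of all groups were restricted, to a lower share of free energy intake in DOP and WCOC than in C. Each diet was fed in a single pen, so that diet, feeding level and pen cannot be told apart.

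IGF1 and IGF2 are small secreted hormones that promote growth and cell survival. They signal through the tyrosine kinase IGF1R, whereas IGF2R takes IGF2 into the cell for breakdown in lysosomes. The binding proteins hold the ligands in serum and in the tissue matrix, lengthen their life and set how much reaches the receptor, and proteases that cut the binding proteins set the ligands free. In adipose tissue, IGF1 made locally acts on preadipocytes and their differentiation.

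The 15 libraries, 1 per pig, held 22373715 to 34745218 counts on genes, and values are given as CPM (counts scaled to a common library size) adjusted by the trimmed mean of M values, TMM. A gene was called changed at an adjusted p under 0.05 in edgeR with a log2 fold change (log2FC) of at least 0.58 in size, and SE is the standard error of a log2FC. The adipocyte marker list was high in every library (9 of 10 genes matched, summed 12573 to 22073 CPM), with 1 matched gene, CFD, listed at 0 throughout. Markers of skeletal muscle (5 of 12 matched) ranged from 42.9 to 3188 CPM in C, from 31.1 to 40924 CPM in DOP and from 16.6 to 633 CPM in WCOC, and were above 1000 CPM in the libraries C1, C3, DOP2, DOP4 and DOP5. Fits without these muscle-rich libraries keep 10 libraries, and DOP is then held by DOP1 and DOP3 alone. By the run names, the 4 libraries C1 to C4 and the 5 WCOC libraries were read on 1 flow cell. The 5 DOP libraries and C5 were on another, so that DOP and its flow cell differ together from all but 1 control. Those names put 4 C and 3 WCOC libraries in lane 2 of the first flow cell, whereas the methods state 4 samples per lane. With flow cell in the model, C5 alone links DOP to the libraries of the other flow cell. In bulk tissue, fewer cells of a type and less RNA per cell cannot be told apart.

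Only 1 of the 8 genes, IGFBP4, was called changed in any comparison. It rose in WCOC against C and against DOP and was not called in DOP vs. C. No gene of the axis was called in DOP vs. C, where 0.764% of all tested genes were. In WCOC vs. C, 1 of 8 was called beside 6.25% of all tested genes, and in WCOC vs. DOP, 1 of 8 beside 7.76%. DESeq2 gave the same counts of 0, 1 and 1. At an unadjusted p under 0.05 in edgeR, 1 of 8 passed in DOP vs. C, 4 in WCOC vs. C and 3 in WCOC vs. DOP, beside 17.6%, 26.4% and 28.1% of all tested genes. In each comparison 5 of the 8 genes had a positive log2FC. Their median log2FC was 0.11 in DOP vs. C, 0.27 in WCOC vs. C and 0.11 in WCOC vs. DOP, against 0.01, 0.00 and 0.00 over all tested genes. The comparisons share libraries, so that their values are not independent of each other.

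**Figure D1:**
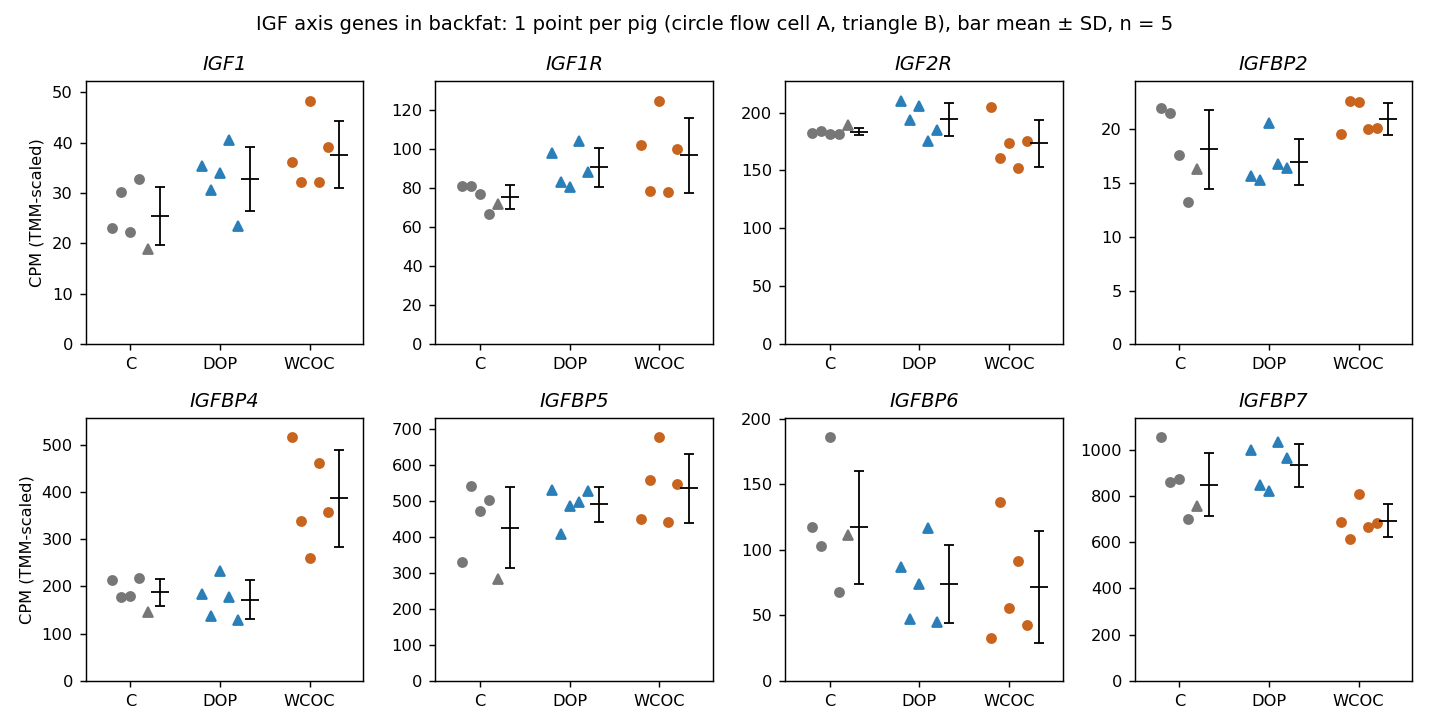
TMM-scaled CPM (vertical axis, from 0) of the 8 genes in each pig of the C, DOP and WCOC groups; circles and triangles mark the 2 flow cells, and bars give the mean and SD of 5 pigs. The 5 WCOC pigs have 259 to 516 CPM of IGFBP4, above all C and DOP pigs, whereas the diets overlap for IGF1, IGF1R, IGF2R, IGFBP2, IGFBP5 and IGFBP6.

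IGF1, the ligand of the axis that could be measured, lies on chromosome 5 of Sscrofa11.1 (81762027 to 81909253, plus strand; ENSSSCG00000000857), and 2 uncharacterised genes overlap it on the opposite strand. In C1 to C5 it had 23.2, 30.3, 22.3, 32.8 and 18.9 CPM. In DOP1 to DOP5 it had 35.5, 30.6, 33.9, 40.6 and 23.4 CPM. In WCOC1 to WCOC5 it had 36.3, 32.2, 48.4, 32.2 and 39.2 CPM. C4, the highest control, was above the 2 lowest WCOC libraries, and the groups overlapped in all 3 comparisons. The means were 25.5 ± 5.82 CPM in C, 32.8 ± 6.36 in DOP and 37.6 ± 6.68 in WCOC (SD, n = 5). IGF1 was not called in WCOC vs. C, with a log2FC of 0.56 (SE 0.17, edgeR adjusted p = 0.0505). It was called there when C2 (log2FC 0.63, edgeR adjusted p = 0.0457), C4 (0.67, edgeR adjusted p = 0.0326) or WCOC2 (0.61, edgeR adjusted p = 0.0437) was left out, and in none of the 18 other alternatives, where DESeq2 gave an adjusted p of 0.0181 with a log2FC of 0.56, under the size threshold. In DOP vs. C the log2FC was 0.37 (SE 0.17, edgeR adjusted p = 0.287), and with flow cell in the model it was 0.80 (edgeR adjusted p = 0.324). That fit in effect sets the DOP libraries against C5 alone, the lowest control. In WCOC vs. DOP the log2FC was 0.20 (SE 0.17, edgeR adjusted p = 0.49), -0.33 with flow cell in the model, 0.095 without DOP5 and 0.092 without WCOC3.

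IGF1R, the signalling receptor of both ligands, lies on chromosome 1 (137383623 to 137691038, minus strand; ENSSSCG00000030560) and is overlapped on the opposite strand by PGPEP1L. Controls C1 to C5 had 80.7, 81.1, 76.6, 66.7 and 71.8 CPM. The DOP libraries had 97.7, 82.9, 80.3, 103.8 and 88.1 CPM, and the WCOC libraries 101.8, 78.3, 124.6, 78.0 and 99.98 CPM. Of the DOP libraries, 4 were above every control, and of the WCOC libraries 3 were, with WCOC2 and WCOC4 within the range of the controls. The log2FC was 0.26 in DOP vs. C (SE 0.12, edgeR adjusted p = 0.276) and 0.36 in WCOC vs. C (SE 0.12, edgeR adjusted p = 0.0771), and neither was called. WCOC and DOP differed by a log2FC of 0.09 (SE 0.12, 95% interval -0.15 to 0.33).

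IGF2R, the receptor that clears IGF2 and carries mannose 6-phosphate proteins to lysosomes, lies elsewhere on chromosome 1 (7369485 to 7472480, minus strand; ENSSSCG00000004044). The controls were close to each other at 182, 184, 181, 181 and 189 CPM. The DOP libraries spread from 176 to 210 CPM and the WCOC libraries from 152 to 205 CPM, on either side of the controls. Its log2FC was 0.08 in DOP vs. C, with a 95% interval of -0.08 to 0.24, and -0.08 in WCOC vs. C, with an interval of -0.24 to 0.08. Both intervals lie within the size threshold of 0.58.

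IGFBP4, a secreted protein that binds IGF1 and IGF2 and keeps them from the receptor until proteases such as pappalysin cut it, lies on chromosome 12 (21966524 to 21980043, minus strand; ENSSSCG00000017472). The controls had 213, 179, 180, 218 and 147 CPM. The DOP libraries had 184, 138, 233, 177 and 130 CPM. The WCOC libraries had 516, 338, 259, 461 and 358 CPM. Every WCOC library was above every C and DOP library, WCOC1 and WCOC4 were the highest, and WCOC3 was the nearest to the other diets. The means were 187 ± 29.2 CPM in C, 172 ± 41.3 in DOP and 386 ± 102 in WCOC (SD, n = 5), from 3651 to 15763 reads per library.

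IGFBP4 rose 2.06-fold in WCOC vs. C (log2FC 1.04, SE 0.20, edgeR adjusted p = 0.00572) and 2.24-fold in WCOC vs. DOP (log2FC 1.17, SE 0.20, edgeR adjusted p = 0.00326). Groups did not overlap for 0 of the 8 genes in DOP vs. C, beside 3.47% of all tested genes, for 1 in WCOC vs. C, beside 7.62% of all tested genes, and for 2 of 8 in WCOC vs. DOP, beside 8.90%. Against C, the call held without each of the 10 libraries in turn, with a log2FC of 0.92 to 1.16. It also held on the flow cell that C1 to C4 share with WCOC (log2FC 0.96, edgeR adjusted p = 0.0234) and without the 5 libraries high in muscle markers (log2FC 1.09, edgeR adjusted p = 0.0347). Within lane 2 of that flow cell, with 4 C and 3 WCOC libraries, the log2FC was 0.90 and the call was lost (edgeR adjusted p = 0.108). Against DOP, the call was lost with flow cell in the model (log2FC 0.74, edgeR adjusted p = 0.384), a fit in which C5 alone ties the flow cells. It was also lost without the muscle-rich libraries (0.89, edgeR adjusted p = 0.201), where DOP1 and DOP3 alone remain of DOP. In DOP vs. C the log2FC of IGFBP4 was -0.12 (SE 0.19, edgeR adjusted p = 0.793), and its sign turned under those same alternatives, to 0.23 and 0.20.

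**Figure D2:**
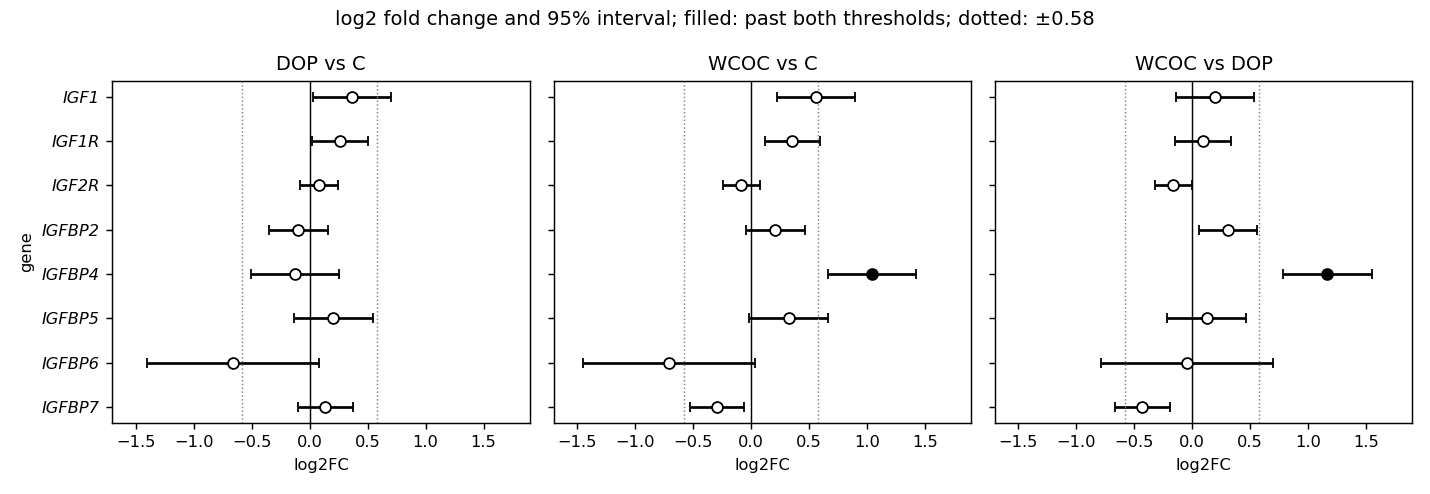
Log2FC (horizontal axis) of the 8 genes in each comparison (DOP vs. C, left; WCOC vs. C, middle; WCOC vs. DOP, right), with bars of the 95% interval and dotted lines at the size threshold of 0.58 in either direction; filled points passed both thresholds. IGFBP4 is the single filled point in the WCOC panels, at 1.04 and 1.17, and there is none in DOP vs. C.

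The adipocyte list summed to 12573 to 16722 CPM in C, 15183 to 19767 in DOP and 15591 to 22073 in WCOC, with 1 of 8 tested markers called higher in WCOC vs. C (median log2FC 0.42). Of all tested genes, 6.25% were called in WCOC vs. C and 7.76% in WCOC vs. DOP. The macrophage list was lower, with 5 of 11 markers called lower in WCOC vs. C (median log2FC -1.16) and summed levels of 260 to 752 CPM in C, 186 to 465 in DOP and 125 to 346 in WCOC. Fibroblast and adipocyte progenitor markers were called lower in WCOC vs. C for 3 of 9 (median log2FC -0.76), with summed levels of 19827 to 29195 CPM in C, 17585 to 27087 in DOP and 13432 to 22286 in WCOC. No matched marker of the last 2 lists was at 0 throughout. In WCOC vs. DOP, 2 of 8 tested adipocyte markers, LEP and PLIN4, were called higher, and 6 of the 8 had a positive log2FC. LUM and PDGFRA were called lower among 9 fibroblast markers, of which 1 had a positive log2FC. CD163 was called lower among 11 macrophage markers, of which 2 had a positive log2FC. TNNC2, TNNT1 and TNNT3 were called lower among 5 skeletal muscle markers, which had a median log2FC of -5.83. KRT1 was called higher among 5 tested epidermis and hair follicle markers (median log2FC 1.53), whose summed level was highest in WCOC5, at 139 CPM. Centred within diets over the 15 libraries, IGFBP4 had a Pearson's r of 0.551 with the mean log2 CPM of the adipocyte list (permutation test, adjusted p = 0.689). With the macrophage, fibroblast and skeletal muscle lists r was -0.267, -0.165 and -0.069. The part of these cell types in the differences of IGFBP4 between diets was not tested.

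Among 9648 genes of sufficient level, the 5 whose log2 CPM followed that of IGFBP4 most closely over the 15 libraries were WASHC1 (Pearson's r = 0.973), ITIH5 (0.949), AKAP12 (0.947), DENND5A (0.934) and CRYM (0.933). The points share library and diet, and after centring within diets r was 0.899, 0.806, 0.786, 0.734 and 0.696. Mean levels went from 513 CPM in C and 524 in DOP to 1071 in WCOC for ITIH5, which encodes a secreted inter-alpha-trypsin inhibitor heavy chain, and from 19.6 and 17.5 to 56.3 CPM for CRYM, which encodes a binding protein of thyroid hormone. WASHC1 had 25.2 CPM in C, 24.96 in DOP and 30.7 in WCOC. AKAP12, a scaffold of protein kinase A, went from 105 CPM in C and 105 in DOP to 198 in WCOC.

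IGFBP2 and IGFBP5 are neighbours on chromosome 15, at 118822092 to 118850985 on the plus strand (ENSSSCG00000035392) and at 118861816 to 118877787 on the minus strand (ENSSSCG00000025924). IGFBP2, a carrier also made by the liver, had 22.02, 21.5, 17.6, 13.3 and 16.3 CPM in the controls. It had 15.7, 15.3, 20.6, 16.8 and 16.4 CPM in DOP and 19.5, 22.7, 22.6, 20.04 and 20.1 CPM in WCOC. DOP3 stood above the other DOP libraries, and 3 WCOC libraries lay within the range of the controls and 2 above it. The log2FC was 0.21 in WCOC vs. C (SE 0.13, edgeR adjusted p = 0.317), 0.31 in WCOC vs. DOP (SE 0.13, edgeR adjusted p = 0.133) and -0.10 in DOP vs. C (SE 0.13, edgeR adjusted p = 0.753), and none was called. In DOP vs. C the sign turned to 0.06 with flow cell in the model and to 0.09 without the muscle-rich libraries.

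IGFBP5, which binds the extracellular matrix and carries IGF1 there, was at 331, 543, 472, 505 and 284 CPM in the controls. In DOP it was at 532, 409, 488, 498 and 529 CPM, and in WCOC at 451, 559, 678, 441 and 549 CPM. C1 and C5 were below all other libraries, and the other 3 controls lay among the pigs fed olive by-products. It was not called in DOP vs. C (log2FC 0.20, SE 0.17, edgeR adjusted p = 0.596), in WCOC vs. C (0.33, SE 0.17, edgeR adjusted p = 0.247) or in WCOC vs. DOP (0.12, SE 0.17, edgeR adjusted p = 0.694). With flow cell in the model the first of these was 0.79 (edgeR adjusted p = 0.27) and the last -0.58. For DOP vs. C, that fit in effect sets the DOP libraries against C5 alone, the lowest control. The log2FC in DOP vs. C was 0.086 without C5 and 0.12 without C1, and in WCOC vs. C it was 0.21 without C5. Over the 15 libraries, the diets did not separate for either neighbour.

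IGFBP6, which prefers IGF2 over IGF1, lies on chromosome 5 (18352884 to 18357225, plus strand; ENSSSCG00000000261). Relative to its mean it varied more within each diet than the other 7 genes, at 117, 103, 186, 68.0 and 111 CPM in C, 87.1, 47.4, 74.1, 116 and 45.0 CPM in DOP and 32.6, 136, 55.8, 91.2 and 42.3 CPM in WCOC. Both by-product groups had lower means than C, at 74.0 ± 29.6 and 71.7 ± 42.5 against 117 ± 42.9 CPM (SD, n = 5), and the groups overlapped. With a log2FC of -0.66 in DOP vs. C (SE 0.38, edgeR adjusted p = 0.388) and of -0.71 in WCOC vs. C (SE 0.38, edgeR adjusted p = 0.249), neither difference was called. In WCOC vs. C it was -1.08 without WCOC2 (edgeR adjusted p = 0.0595) and -0.40 without the muscle-rich libraries, and in DOP vs. C it was -0.44 without C3 and -0.23 without the muscle-rich libraries. The 95% intervals, from -1.41 to 0.08 and from -1.45 to 0.03, include 0 as well as values past the size threshold.

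Within diets, IGFBP6 followed the mean log2 CPM of the fibroblast and adipocyte progenitor list, which does not hold it. Over the 15 libraries centred within diets, Pearson's r was 0.94 (permutation p = 1e-05, the smallest that the draws can give; adjusted over 64 relations 0.00064) and Spearman's rho was 0.896 (permutation test, adjusted 0.0064). Without C3 and WCOC2, the libraries farthest from the median of the list, r was 0.893. It was 0.957 in the 9 libraries of the first flow cell and 0.902 in the second. As C5 is the only control of the second, centring leaves it no deviation, and the latter value rests on the 5 DOP libraries alone. Of the 64 relations between the 8 genes and 8 marker lists, this one alone had an adjusted p under 0.05, and the libraries share the scaling that enters both values.

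IGFBP7, a protein of low affinity for IGFs that is abundant in blood vessels and matrix, lies on chromosome 8 (56283089 to 56357822, minus strand; ENSSSCG00000008913) and is overlapped on the opposite strand by POLR2B. The controls had 1054, 861, 874, 702 and 757 CPM. The DOP libraries had 997, 847, 823, 1033 and 965 CPM, and the WCOC libraries 689, 615, 810, 668 and 684 CPM. Every WCOC library was below every DOP library, with 810 CPM in the highest WCOC and 823 CPM in the lowest DOP library, and 4 of 5 were below every control. In WCOC vs. DOP the edgeR adjusted p was 0.0331, but the log2FC of -0.43 (SE 0.12) was under the size threshold, so that IGFBP7 was not called. Of the 10 fits without 1 of these libraries, the edgeR adjusted p was highest without WCOC4, at 0.0712, and with flow cell in the model it was 0.34 with a log2FC of -0.64. In WCOC vs. C the log2FC was -0.29 (SE 0.12, edgeR adjusted p = 0.135) and in DOP vs. C 0.14 (SE 0.12, edgeR adjusted p = 0.613).

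Of the 28 pairs of the 8 genes, 1 pair moved together within diets at an adjusted p under 0.05. For IGF1R and IGFBP7, centred within diets over the 15 libraries, Pearson's r was 0.778 (permutation p = 2e-05, adjusted 0.00056) and Spearman's rho was 0.836 (permutation test, adjusted 0.0042). Without WCOC3 and WCOC4, the libraries farthest from the median of IGF1R, r was 0.802. It was 0.739 within the first flow cell (9 libraries, permutation p = 0.00522) and 0.944 within the second. Centring leaves no deviation for C5, the only control of the second, so that the latter value rests on the 5 DOP libraries alone. With the endothelial marker list, centred within diets, r was 0.581 for IGF1R and 0.681 for IGFBP7 (permutation test, adjusted p = 0.689 and 0.294). The part of endothelial cells in the relation of this pair was not tested. Between diets, the mean of IGF1R was 75.4 ± 6.13 CPM in C, 90.5 ± 9.96 in DOP and 96.5 ± 19.4 in WCOC, and that of IGFBP7 was 850 ± 135, 933 ± 92.9 and 693 ± 71.8 CPM (SD, n = 5), and no difference of either gene passed both the adjusted p and the size threshold.

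**Figure D3:**
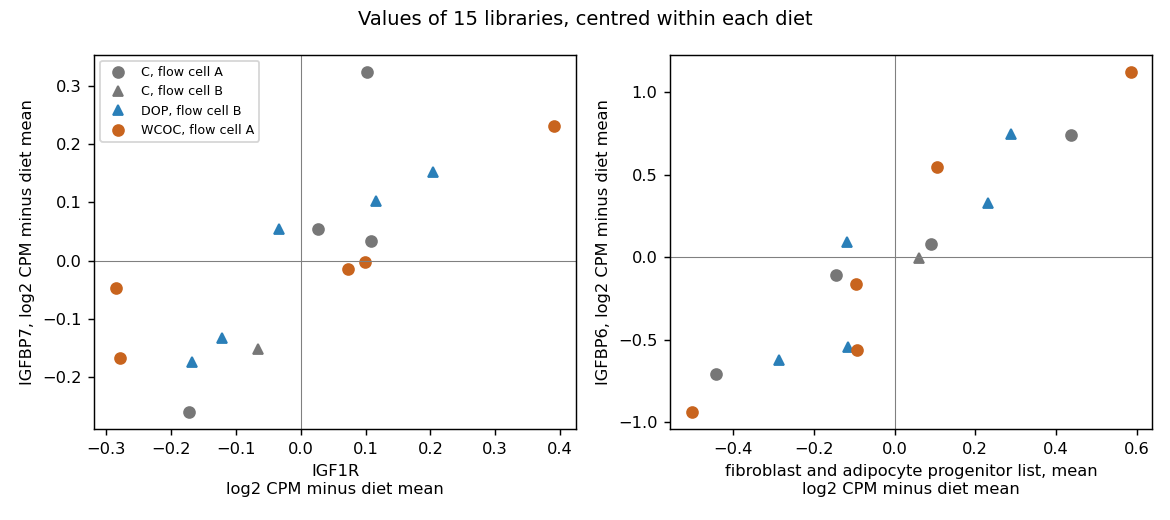
Log2 CPM minus the mean of the diet in the 15 libraries, for IGF1R against IGFBP7 (left) and for the fibroblast and adipocyte progenitor list against IGFBP6 (right); colours give the diet and shapes the flow cell. The points rise from lower left to upper right in both panels (r = 0.778 and 0.94).

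The genes around the axis were read from 7 lists of 67 genes in all, of which 62 were matched and 57 tested. In DOP vs. C 1 was called higher and 1 lower (3.51%), in WCOC vs. C 3 higher and 2 lower (8.77%) and in WCOC vs. DOP 1 higher and 2 lower (5.26%), beside 0.764%, 6.25% and 7.76% of all tested genes. The median log2FC of the 57 was 0.07, 0.04 and 0.03. Levels were 0 CPM in every library for IGFBP1, a carrier made in liver, SOCS3, a feedback inhibitor of cytokine signalling, and IRS4, an adaptor of the receptor, which were not tested. Whether these genes, and the marker CFD, are silent or their reads were not assigned to them was not tested.

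Among the other carriers and proteins with an IGFBP-like domain, HTRA3, a secreted serine protease of that domain structure, fell in both by-product groups. It had 72.1, 116, 68.4, 197 and 111 CPM in the controls, 35.5, 52.2, 47.7, 27 and 42.9 in DOP and 16.9, 33.5, 39.6, 31.9 and 20.5 in WCOC. Every pig fed a by-product was below every control, and C4 was the highest. The log2FC was -1.99 in WCOC vs. C (SE 0.30, edgeR adjusted p = 0.00175), called in 20 of 21 alternatives and lost in lane 2 (edgeR adjusted p = 0.0951). In DOP vs. C it was -1.46 (SE 0.30, edgeR adjusted p = 0.0411), and among the 10 fits that each left out 1 library the call held in the fit without C1 alone, with edgeR adjusted p values of up to 0.11 in the others. It was also lost with flow cell in the model (log2FC -1.43, edgeR adjusted p = 0.245), with the replicate number as a block (edgeR adjusted p = 0.144), with the compared diets alone (edgeR adjusted p = 0.0808) and without the muscle-rich libraries (-1.76, edgeR adjusted p = 0.555).

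HTRA1, a related protease, fell in WCOC vs. C, from 137 ± 30.7 to 88.7 ± 20.9 CPM (SD, n = 5; log2FC -0.63, SE 0.17, edgeR adjusted p = 0.0347). That call was lost without C3, C5, WCOC1, WCOC3, WCOC4 or WCOC5, with an edgeR adjusted p of up to 0.0894, on the shared flow cell alone (edgeR adjusted p = 0.11), with flow cell in the model (0.0753), with the replicate number as a block (0.101) and without the muscle-rich libraries (log2FC -0.50, edgeR adjusted p = 0.207). CRIM1, a membrane protein with an IGFBP-like motif that is overlapped on the opposite strand by FEZ2, rose to 298, 200, 199, 258 and 199 CPM in WCOC, from 129 to 165 CPM in C and 119 to 194 CPM in DOP, with no overlap between WCOC and the others. Its log2FC was 0.75 in WCOC vs. C (SE 0.15, edgeR adjusted p = 0.00973) and 0.65 in WCOC vs. DOP (SE 0.15, edgeR adjusted p = 0.0167). The former was called without each library in turn and lost in lane 2 (0.725, edgeR adjusted p = 0.0989) and without the muscle-rich libraries (0.69, edgeR adjusted p = 0.0557). The latter was lost without WCOC1, where the log2FC of 0.54 was under the size threshold, with flow cell in the model (0.54, edgeR adjusted p = 0.446) and without the muscle-rich libraries (0.35, edgeR adjusted p = 0.509). IGFALS, the acid-labile subunit of the serum IGF complex, had 8.05 ± 4.82 CPM in C, 11.7 ± 4.22 in DOP and 18.7 ± 5.96 in WCOC (SD, n = 5) and was not called in WCOC vs. C (log2FC 1.22, SE 0.39, edgeR adjusted p = 0.0583).

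**Figure D4:**
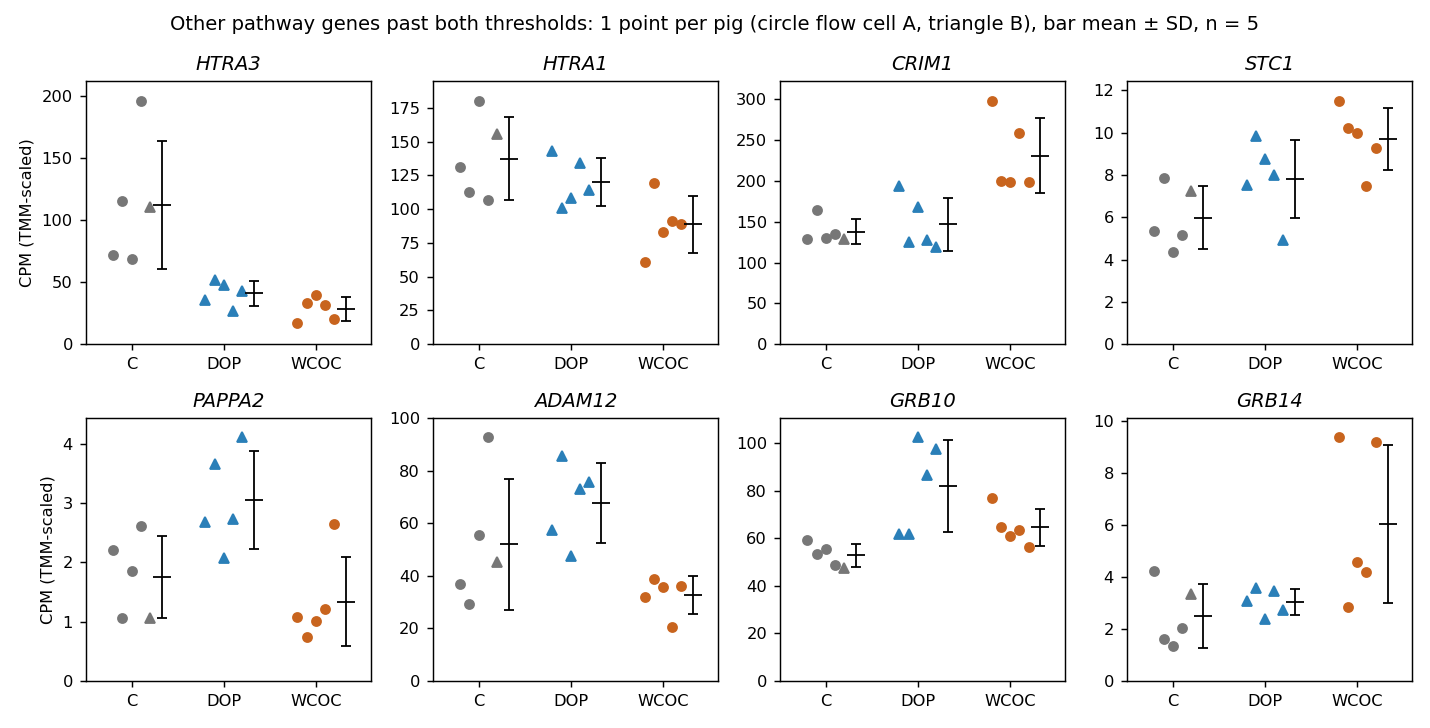
TMM-scaled CPM (vertical axis, from 0) in each pig of the 8 pathway genes called in at least 1 comparison; circles and triangles mark the 2 flow cells, and bars give the mean and SD of 5 pigs. HTRA3 lies at 68.4 to 197 CPM in C and below in both by-product groups, CRIM1 is highest in WCOC, and GRB10 spreads widely in DOP.

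Of the 7 proteases that cut binding proteins and inhibitors of these proteases, 1 was called in WCOC vs. C and 2 were called in WCOC vs. DOP, beside 6.25% and 7.76% of all tested genes. STC1, an inhibitor of the pappalysins, rose in WCOC vs. C, from 5.99 ± 1.48 to 9.70 ± 1.48 CPM (SD, n = 5; log2FC 0.70, SE 0.20, edgeR adjusted p = 0.0379), with 4 of 5 WCOC libraries above every control. The call held without C2, C5 or WCOC4 and was lost without any of the other 7 libraries, with an edgeR adjusted p of up to 0.1. Over all 21 alternatives the call of STC1 held in 9, with a log2FC of 0.52 to 0.89 and an edgeR adjusted p of up to 0.161. PAPPA, the pappalysin that cuts IGFBP4, had 3.44 ± 0.835 CPM in C, 3.46 ± 0.828 in DOP and 2.68 ± 0.588 in WCOC (SD, n = 5), with a log2FC of -0.36 in WCOC vs. C (SE 0.23, edgeR adjusted p = 0.329). PAPPA2, which cuts IGFBP3 and IGFBP5, fell in WCOC vs. DOP, from 3.06 ± 0.820 to 1.34 ± 0.754 CPM (SD, n = 5; log2FC -1.18, SE 0.35, edgeR adjusted p = 0.0395), with 20 to 118 reads per library. ADAM12, a metalloprotease of the same substrates that is overlapped by FANK1 on the opposite strand, fell there from 67.9 ± 15.3 to 32.7 ± 7.22 CPM (SD, n = 5; log2FC -1.05, SE 0.27, edgeR adjusted p = 0.0246). Of the 10 fits without 1 library, ADAM12 was called in 6 (lost without DOP2, DOP5, WCOC1 or WCOC4, edgeR adjusted p up to 0.0594) and PAPPA2 in 3 (held without DOP1, DOP3 or WCOC5, edgeR adjusted p up to 0.0934 in the others), and neither was called with flow cell in the model or without the muscle-rich libraries. CTSD, a lysosomal protease with the highest CPM of this list, was at 1147 ± 369 CPM in C, 614 ± 126 in DOP and 802 ± 139 in WCOC (SD, n = 5) and was not called in DOP vs. C (log2FC -0.90, SE 0.21, edgeR adjusted p = 0.0582). The study, which used DESeq2, lists CTSD among its genes that differ between DOP and C.

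None of the 6 tested genes of the growth hormone axis, which drives IGF1 transcription, was called in any comparison by edgeR, and an unadjusted p under 0.05 was reached by 0 of them in DOP vs. C, 4 in WCOC vs. C and 3 between the by-product diets, beside 17.6%, 26.4% and 28.1% of all tested genes. GHR, the growth hormone receptor, had 548, 623, 453, 648 and 598 CPM in C, 528, 591, 711, 611 and 530 CPM in DOP and 971, 807, 763, 662 and 678 CPM in WCOC. Every WCOC library was above every control, with WCOC1 the highest, and the WCOC and DOP ranges overlapped. In WCOC vs. C its edgeR adjusted p was 0.0487 with a log2FC of 0.44 (SE 0.13), under the size threshold. The median log2FC of this list was 0.28 in WCOC vs. C and 0.10 in DOP vs. C.

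Among the partners of the receptor, GRB10, an adaptor that restrains insulin and IGF1 signalling, rose in DOP vs. C, from 52.9 ± 4.83 to 82.1 ± 19.3 CPM (SD, n = 5; log2FC 0.63, SE 0.14, edgeR adjusted p = 0.0484). Of the 10 fits without 1 library it was called without C1 and without DOP1, and the edgeR adjusted p was up to 0.122 in the others. The call was also lost with flow cell in the model (log2FC 0.79, edgeR adjusted p = 0.244), with the replicate number as a block (edgeR adjusted p = 0.163), with the compared diets alone (edgeR adjusted p = 0.114) and without the muscle-rich libraries (0.71, edgeR adjusted p = 0.63). GRB14, a related adaptor, rose in WCOC vs. C, at 4.22, 1.62, 1.34, 2.03 and 3.35 CPM in C and 9.39, 2.85, 4.57, 4.19 and 9.20 CPM in WCOC (log2FC 1.27, SE 0.36, edgeR adjusted p = 0.0377). WCOC1 and WCOC5 were the highest, and without WCOC1, WCOC5, C2, C3 or C4 the call was lost, with an edgeR adjusted p of up to 0.109. The call of GRB14 was also lost on the shared flow cell alone (edgeR adjusted p = 0.0968) and in its lane 2 (0.225). With the compared diets alone (0.0767) and without the muscle-rich libraries (0.119) it was lost too, and it held in 12 of 21 alternatives. INSR, the insulin receptor, had a log2FC of 0.12 in both comparisons with C (SE 0.14 in each), and IRS2, an adaptor of both receptors with the highest CPM of the list, was not called in WCOC vs. C (log2FC 0.36, SE 0.18, edgeR adjusted p = 0.202). IRS1, the other main adaptor, had 20.7 to 23.3 CPM in C and 24.1, 32.7, 19.8, 33.95 and 107 CPM in DOP, and it was not called in DOP vs. C (log2FC 1.01, SE 0.35, edgeR adjusted p = 0.159). DOP5, far above the other libraries, was also the one with the most RNA of skeletal muscle markers, at 40924 CPM, and the part of muscle in this value was not tested. With DESeq2, the study reported IRS1 as upregulated in DOP.

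In the arms below the receptor, none of the 18 tested genes of the PI3K-AKT-mTOR arm was called in any comparison, with medians of 0.10 in DOP vs. C, 0.02 in WCOC vs. C and -0.06 between the by-product diets, and 1, 3 and 5 of the 18 had an unadjusted p under 0.05 in edgeR, beside those same shares of all tested genes. Its member with the highest CPM, the kinase AKT2, had 824 ± 129 CPM in C, 890 ± 116 in DOP and 908 ± 179 in WCOC (SD, n = 5). None of the 8 tested genes of the RAS-MAPK arm was called by edgeR in any comparison or had an unadjusted p under 0.05, with medians of -0.03 in DOP vs. C and 0.00 in WCOC vs. C. MAP2K2, the gene of this arm with the highest CPM, had a log2FC of -0.14 in WCOC vs. C (SE 0.13, edgeR adjusted p = 0.497). IGF2BP2, a binding protein of IGF2 mRNA, had 12.2 ± 1.58 CPM in C, 9.93 ± 0.560 in DOP and 14.2 ± 4.69 in WCOC (SD, n = 5) and was called in no comparison.

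**Figure D5:**
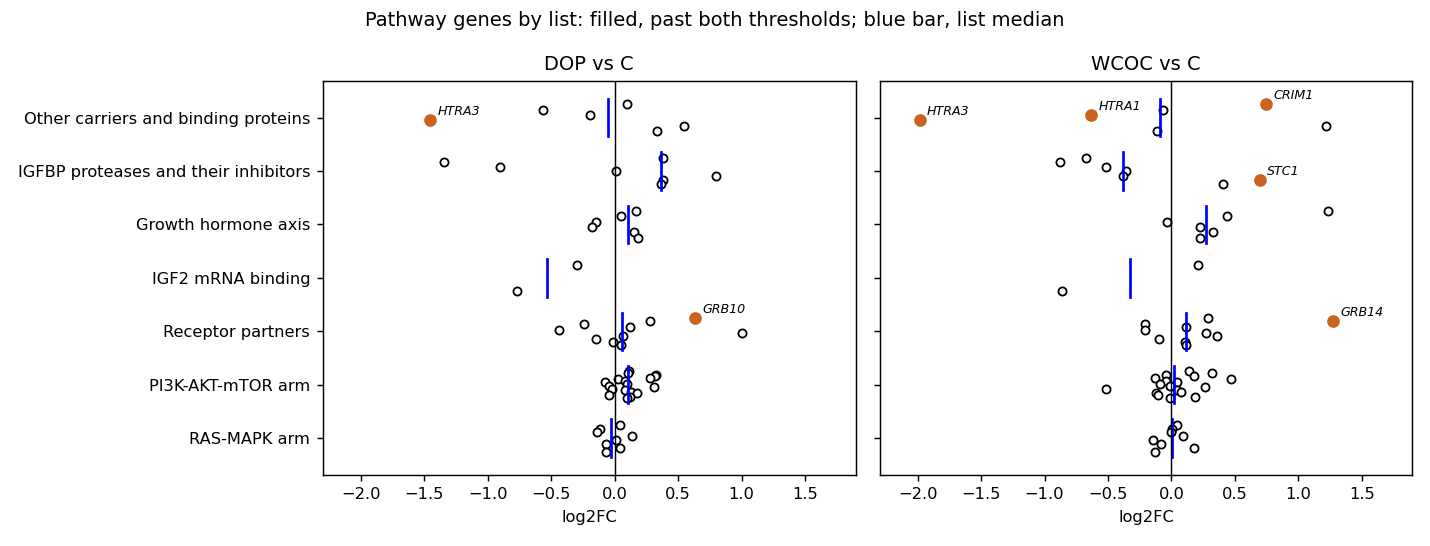
Log2FC (horizontal axis) in DOP vs. C (left) and WCOC vs. C (right) of the 57 tested pathway genes, 1 row per list and 1 point per gene; filled points passed both thresholds, and blue bars give the median of each list. The 5 filled points in WCOC vs. C lie in the lists of carriers, of proteases and inhibitors and of receptor partners, and none in the growth hormone, PI3K-AKT-mTOR or RAS-MAPK lists.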

How the data were processed

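Total RNA of backfat was sequenced as paired-end libraries, 1 per pig, from pigs chosen by RNA quantity and quality. According to the methods and the processing notes, the authors checked reads with FastQC, aligned them to Sscrofa11.1 with HISAT2 under its strand-specific option and counted them per gene with HTSeq. Tool versions, the release of the annotation and the strand setting used for counting are not given in the sources used here, so that genes overlapped on the opposite strand are uncertain. The deposited values are raw counts, neither normalized nor pooled, for 30477 genes and 5 summary lines, which took 23.4% to 32.8% of a library and were left out.

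Diets and replicate numbers came from the labels, and flow cells and lanes from the run names. Tests were run with edgeR 4.0.16 under R 4.3.3: filterByExpr, TMM, a quasi-likelihood model of 1 mean per diet over 15 libraries, two-sided tests and Benjamini-Hochberg adjustment over 14918 genes. Log2 CPM used a prior count of 1, and 95% intervals are normal intervals from the SE. These intervals can be narrower than the edgeR test implies. For IGF1 in DOP vs. C, the interval of 0.03 to 0.7 leaves out 0, with an unadjusted edgeR p of 0.0509. CPM depends on gene length, which was not known as used in counting, so that levels were not compared between genes, and the highest CPM of a list served only to choose a gene to name. Relations were tested by 100000 permutations within diets (numpy 2.4.6), two-sided, with adjustment over each family. Genes like IGFBP4 were ranked by Pearson's r among tested genes with a symbol and a mean of at least 5 CPM. The workflow was tested on simulated data.

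The study states no pairing of pigs, so that p-values measure the spread between pigs of a pen. The members and lists were chosen with earlier results of these data known. Named genes are the members, the pathway genes called in any comparison, the gene of highest CPM in each list, and, chosen after their values were seen, PAPPA, IGFALS, INSR, IRS1 and the genes at 0 CPM. A gene of the lists is not reported here. Symbols (14864) came from a reference table and positions from the RefSeq annotation of Sscrofa11.1. Alternatives were the size factors of DESeq2 1.42.0, DESeq2 itself, TMM without muscle genes and the top 50 by abundance, a filter of at least 10 counts per library or none, the compared diets alone, a replicate block, flow cell as a covariate or flow cell A (C1 to C4 and WCOC) alone, and each library left out. Lane 2 alone, the muscle-rich libraries left out (above 1000 CPM) and subsets of the relations were added after seeing the data.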

Additional observations from a re-analysis of the deposited data

Results flagged for a closer look

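IGFBP4 differed between the by-product diets, with a log2FC of 1.17 in WCOC vs. DOP (SE 0.20, edgeR adjusted p = 0.00326), and all 5 WCOC libraries were above all 5 DOP libraries. CRIM1 also differed between the by-product diets (log2FC 0.65, SE 0.15, edgeR adjusted p = 0.0167), as did PAPPA2 (-1.18, SE 0.35, edgeR adjusted p = 0.0395) and ADAM12 (-1.05, SE 0.27, edgeR adjusted p = 0.0246). With flow cell in the model none of these 4 was called, at a log2FC of 0.74 (SE 0.37) for IGFBP4, 0.54 (SE 0.32) for CRIM1, -2.04 (SE 0.75) for PAPPA2 and -1.30 (SE 0.59) for ADAM12, and DOP shares its flow cell with 1 control library only.

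In 3 of 48 groups of 5 libraries, 1 library stood apart from the others by Dixon's criterion, which chance does in about 1 of 20 groups. DOP3 had 20.6 CPM of IGFBP2, against 15.3 to 16.8 in the other DOP libraries. C2 had 164.7 CPM of CRIM1, against 128.9 to 134.5 in the other controls. WCOC5 had 2.66 CPM of PAPPA2, against 0.749 to 1.21 in the other WCOC libraries.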

How the results depend on the processing

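The call of IGFBP4 in WCOC vs. C held in 20 of 21 alternatives (log2FC 0.90 to 1.16) and that in WCOC vs. DOP in 17 of 19 (0.74 to 1.30). In WCOC vs. C the members called were 0 in lane 2 alone and 1 to 2 with each library left out, the second being IGF1. In WCOC vs. DOP they were 0 with flow cell as a covariate and 0 without the muscle-rich libraries. The counts over all genes depended more on the processing, and the cause was not tested. DOP vs. C gave 114 calls, 496 with DESeq2, 2 with only the compared diets (2377 genes at an unadjusted p under 0.05 in edgeR), 0 to 200 with each library left out and 0 without the muscle-rich libraries (857 at an unadjusted p under 0.05). It gave 200 calls without C1, 46 without C4, 4 without DOP3, 1 without DOP5 and 0 without C3, C5, DOP2 or DOP4 (2135 to 2426 genes at an unadjusted p under 0.05 in edgeR). WCOC vs. C gave 933 calls, 486 on flow cell A alone, 34 in lane 2, 354 without the muscle-rich libraries and 468 to 1163 with each library left out, with 468 without WCOC1, 532 without C3 and 596 without WCOC4. WCOC vs. DOP gave 1158 calls, 1 with flow cell as a covariate, 92 without the muscle-rich libraries and 639 to 1291 with each library left out, with 639 without WCOC1, 699 without DOP5, 700 without WCOC4 and 731 without DOP2.

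Replicate numbers do not pair pigs of different diets, and deviations of libraries with the same number correlated at -0.495 to 0.345. With the number as a replicate block, edgeR gave 0 calls in DOP vs. C (1950 genes at an unadjusted p under 0.05), 473 in WCOC vs. C and 561 in WCOC vs. DOP. IGFBP4 kept both calls with the block (log2FC 1.04 and 1.16).

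Signs turned for differences that were not called. In DOP vs. C, flow cell as a covariate gave IGFBP4 0.23, IGFBP2 0.059 and GRB14 -0.14, leaving out the muscle-rich libraries gave IGFBP4 0.20, IGFBP2 0.087, ADAM12 -0.092 and HTRA1 0.001, and leaving out DOP1 gave CRIM1 -0.032. In WCOC vs. DOP, flow cell as a covariate gave IGF1 -0.33 and IGFBP5 -0.58. With each library left out, IGF1R ranged from -0.016 to 0.17 and IGFBP6 from -0.42 to 0.17, with 0.02, 0.17, 0.14, 0.03 and 0.10 without DOP1, DOP4, WCOC1, WCOC3 and WCOC5.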
